A study of Homo sapiens with 8 samples.

Results

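The 10 loci described here carry genes for transcription factors and a coactivator of the B cell lineage, PAX5, EBF1, IKZF1, IKZF3, BCL6, BACH2, IRF8, POU2AF1, MEF2C and SPIB. Each locus is a fixed hg19 window around the gene, of 60 to 600 kb, and the windows add up to 2720 kb, or 0.0925% of the 2940 Mb between the first and the last peak of each chromosome. The members are the peaks that overlap a window, 973 of 224694 peaks in 6 peak lists. The data are ChIP-seq peaks of NIPBL, MED1 and SMC1A in GM12878, an established lymphoblastoid line derived from B lymphocytes and grown without treatment. Each protein was profiled in 2 libraries, and both whole cell extract libraries were pooled as the control of every list. All libraries come from the same line, with no other cell type or condition, so nothing here is a change. The labels do not tell whether replicates were separate cultures, and the spread between them may be technical. RNA was not measured, and the B cell label was not checked against marker genes, whose hg19 positions were not used here.

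NIPBL loads the cohesin ring onto DNA, SMC1A is a core subunit of that ring, and MED1 belongs to Mediator, which passes signals from enhancer-bound factors to RNA polymerase II. Wide stretches of Mediator are known from genes that define a cell type, while the strongest cohesin sites in human cells usually lie where CTCF halts the ring; CTCF itself was not measured here. EBF1 and PAX5 set up and hold the B cell program, Ikaros (IKZF1) and Aiolos (IKZF3) are zinc finger factors of lymphocytes, and POU2AF1 is the coactivator that B cells use with octamer-binding factors. SPIB is an ETS factor, IRF8 an interferon regulatory factor and MEF2C a MADS box factor, all active in B cells. BCL6 and BACH2 are repressors best known from germinal centre B cells, where they hold back plasma cell differentiation. A peak in a window is not assigned to the gene that names it. In the order of protein-coding genes in RefSeq's GRCh38.p14, PAX5 stands between MELK and ZCCHC7, IKZF3 between GRB7 and ZPBP2, POU2AF1 between POU2AF3 and BTG4, and BCL6 between RTP2 and LPP.

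RefSeq promoters, which run from 250 bases before to 50 after a start, were found for 8 of the 10 genes, 18 promoters in all, in GRCh38.p14. Those of PAX5 and SPIB are shown because MED1 covered among the largest shares of their windows. The shares were smallest at BCL6 and BACH2, and 1 promoter of each is shown for that reason. BCL6 has 2 promoters in the table, and the one with motif matches is shown, a choice made after the matches were seen. Capitals mark matches, on either strand, to the short motifs named after the sequences.
PAX5, chr9:37034219-37034518, minus strand: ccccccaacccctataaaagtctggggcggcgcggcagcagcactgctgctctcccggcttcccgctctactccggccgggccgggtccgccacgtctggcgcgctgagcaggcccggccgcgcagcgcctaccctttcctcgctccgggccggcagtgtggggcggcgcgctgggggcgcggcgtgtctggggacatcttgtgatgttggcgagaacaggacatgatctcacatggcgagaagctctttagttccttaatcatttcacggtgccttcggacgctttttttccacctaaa
SPIB, chr19:50418688-50418987, plus strand: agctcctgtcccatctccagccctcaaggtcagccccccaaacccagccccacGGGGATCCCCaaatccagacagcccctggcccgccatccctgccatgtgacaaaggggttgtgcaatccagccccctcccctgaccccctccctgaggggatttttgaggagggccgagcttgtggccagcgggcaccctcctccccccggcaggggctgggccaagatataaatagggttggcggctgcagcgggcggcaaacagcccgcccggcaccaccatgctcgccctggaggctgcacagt
BCL6, chr3:187736452-187736751, minus strand: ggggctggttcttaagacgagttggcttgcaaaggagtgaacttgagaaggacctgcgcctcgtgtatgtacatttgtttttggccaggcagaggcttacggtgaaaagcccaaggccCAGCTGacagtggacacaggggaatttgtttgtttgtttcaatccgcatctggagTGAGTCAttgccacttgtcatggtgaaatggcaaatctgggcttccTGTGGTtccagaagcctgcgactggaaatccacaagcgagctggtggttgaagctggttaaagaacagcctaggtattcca
BACH2, chr6:90296794-90297093, minus strand: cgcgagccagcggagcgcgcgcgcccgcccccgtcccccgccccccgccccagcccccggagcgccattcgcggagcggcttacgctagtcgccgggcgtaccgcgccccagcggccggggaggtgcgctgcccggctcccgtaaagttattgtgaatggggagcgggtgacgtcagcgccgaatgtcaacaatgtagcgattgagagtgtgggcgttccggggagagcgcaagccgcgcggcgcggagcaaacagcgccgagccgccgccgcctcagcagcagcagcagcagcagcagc
The motifs searched were ETS (CCGGAAGT), PU.1 (GAGGAAGT), RUNX (TGTGGT), AP-1 (TGANTCA), the octamer (ATGCAAAT) and an E-box (CAGCTG), with NF-kappaB and CTCF consensus letters. The SPIB promoter held an NF-kappaB match, which 11.3% of all 35116 promoters of the table also hold. The BCL6 promoter shown held 1 match each to RUNX, AP-1 and the E-box, found in 13.1%, 7.71% and 17.9% of all promoters, and the other BCL6 promoter, chr3:187745419-187745718, held none. No letters matched in the PAX5 and BACH2 promoters, whose GC contents were 65.0% and 73.3%. Neither ETS, PU.1 nor CTCF letters occurred in any of the 18 promoters, against 4.14%, 2.59% and 1.07% of all promoters. These sequences are on another build than the peaks, so no peak was placed on them.

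All 3 proteins were denser in the windows than in the rest of the genome, NIPBL and MED1 more so than SMC1A. A region is the merge of overlapping peaks of both replicates of a protein, kept where both have a peak. NIPBL had 76 of its 11635 regions in the windows, a density of 27.9 per Mb in the windows and 3.94 per Mb in the rest, a ratio of 7.10. MED1 had 89 of 15007 regions there, with 32.7 per Mb in the windows and 5.08 per Mb in the rest, a ratio of 6.44. SMC1A had 142 of 51020 regions there, with 52.2 per Mb in the windows and 17.3 per Mb in the rest, a ratio of 3.01. Peaks of the single libraries gave ratios of 7.26 and 6.72 for NIPBL, 8.04 and 5.47 for MED1, and 3.22 and 3.27 for SMC1A, so the SMC1A ratios lay below those of the other 4 libraries. The rest includes stretches without mappable sequence, and other active genes were not set beside the 10, so the ratios do not single these loci out. With the 15357 peaks of highest fold enrichment taken from every list, the SMC1A ratio was 1.26. Depth could only be estimated, from the lowest control estimate of each list, at 0.743 to 1.00 relative to the deepest library.

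Coverage by MED1 spread the loci further than coverage by the other proteins did. The share of the window under peaks is given for replicate 1 and then replicate 2. It depends on how tightly a window was drawn, and POU2AF1 and SPIB have the shortest windows, of 80 and 60 kb. In base pairs, MED1 regions covered 58792 at PAX5 and 25033 at EBF1, against 12360 at POU2AF1 and 7083 at SPIB. BCL6, with 267, and BACH2, with 0, were lowest in base pairs as well. MED1 covered 8.27% and 19.0% of the POU2AF1 window, 5.34% and 14.4% of SPIB, 5.50% and 12.1% of PAX5, and 5.63% and 11.3% of IKZF3. EBF1 had 2.76% and 8.08%, IRF8 2.40% and 8.22%, IKZF1 2.06% and 7.45%, and MEF2C 1.39% and 6.30%. BCL6 had 0.0545% and 0.343% and BACH2 0% and 0.207%. Replicate 2 covered more in every locus, and the replicate ranges of neighbours in this order overlapped among the first 8 loci, while BCL6 and BACH2 lay below all other loci in both lists. Over the 21680 consecutive 100 kb bins that hold a peak of any library, MED1 covered 0.388% and 1.25% on average, so 8 loci lay above these means and 2 below. The order of loci differed by protein, since NIPBL coverage was highest at IKZF3, with 5.50% and 4.56%, and SMC1A coverage at IRF8, with 5.58% and 8.20%.

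**Figure D1:**
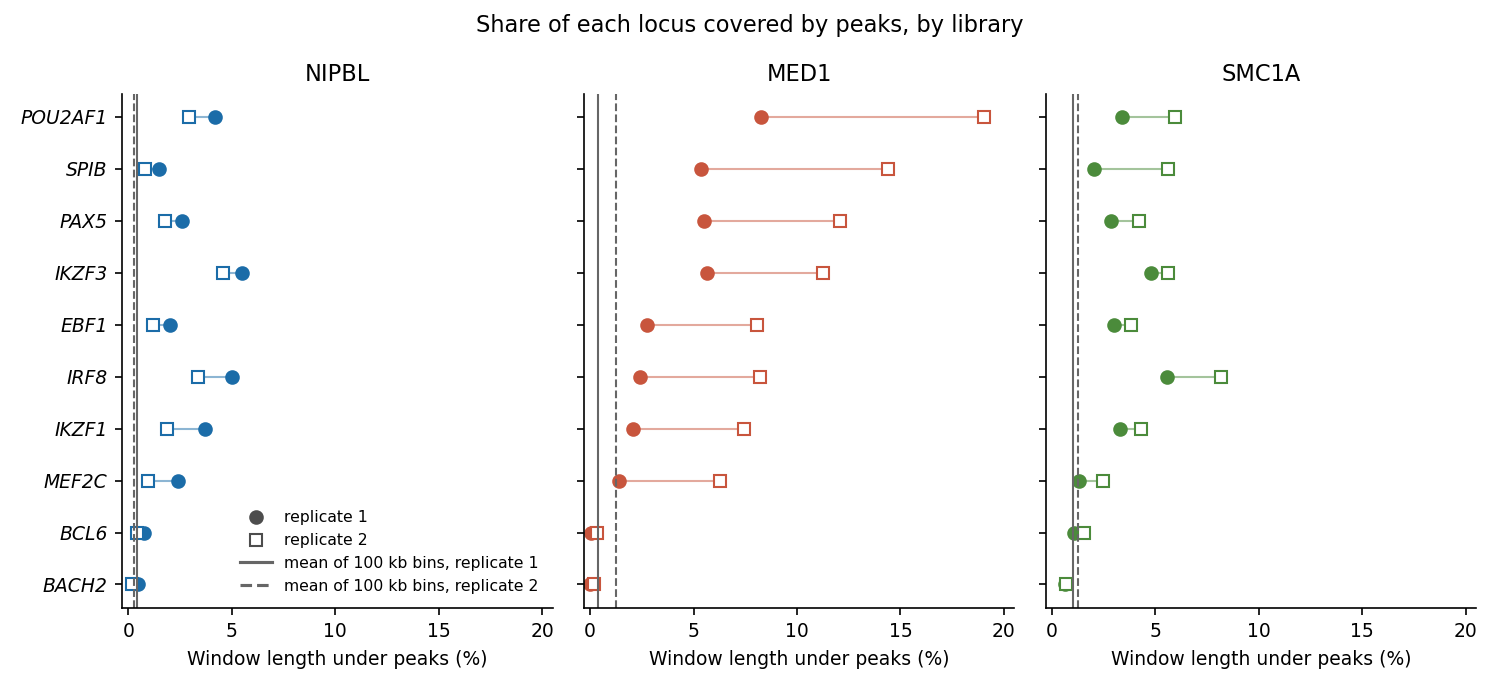
Share of each window covered by peaks of NIPBL, MED1 and SMC1A (x axis, percent), with loci down the page by MED1 coverage; filled circles are replicate 1, open squares replicate 2, and vertical lines the means of 100 kb bins. MED1 spans 0% at BACH2 to 19.0% at POU2AF1, while BCL6 and BACH2 lie close to the bin means for NIPBL and SMC1A.

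MED1 peaks covered more of the window than SMC1A peaks in both libraries of each protein at 3 loci, PAX5, IKZF3 and POU2AF1. At IKZF3 the 2 were nearly equal at their closest, 5.63% for MED1 replicate 1 against 5.59% for SMC1A replicate 2. MED1 lay above SMC1A in this way in 4.04% of the 100 kb bins, which are shorter than most windows and often empty of MED1. The reverse order held at 2 loci, BCL6 and BACH2, and in 60.2% of bins. The libraries overlapped at the other 5 loci. With 2 libraries against 2 an exact permutation test cannot go below p = 0.333, and none was run.

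At the PAX5 locus, 33 and 23 NIPBL peaks, 49 and 64 MED1 peaks and 48 and 56 SMC1A peaks were called in replicates 1 and 2. They formed 18 NIPBL, 25 MED1 and 41 SMC1A regions. The strongest NIPBL region, by the mean percentile of fold enrichment over both lists, was chr9:36993765-36994625, rank 165 of 11635 in the genome. Its fold enrichment was 10.1 and 8.89 for NIPBL, 17.4 and 39.9 for MED1, and 3.16 and 5.57 for SMC1A. All 6 libraries thus had a peak there. Fold enrichments of different antibodies are not on a common scale and are set beside each other only as values. The strongest SMC1A region of the locus, chr9:37308998-37309532, had 19.7 and 23.6, with single-replicate peaks of NIPBL (3.10) and MED1 (6.22). The locus also held both MED1 regions of the windows wider than 5 kb, a width that 155 of 15007 MED1 regions reach. The wider, chr9:37025510-37038284, measured 12775 bp and spanned 3 NIPBL and 7 SMC1A regions. The other, chr9:37402223-37411940, measured 9718 bp and spanned 3 NIPBL and 4 SMC1A regions. Each was a single peak of that width in replicate 2, whereas the widest replicate 1 peak in the locus was 2230 bp, so both widths rest on replicate 2.

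At the EBF1 locus, 24 and 16 NIPBL, 26 and 49 MED1, and 36 and 41 SMC1A peaks gave 12 NIPBL, 19 MED1 and 29 SMC1A regions. Its strongest NIPBL region, chr5:158302106-158302676, had fold enrichments of 5.73 and 5.84 for NIPBL, 5.999 and 12.6 for MED1, and 4.18 and 4.63 for SMC1A. It led by mean percentile but in neither NIPBL list alone. Region chr5:158348325-158349109 had 7.18 in replicate 1, and chr5:158524769-158525156 had 6.31 in replicate 2. The strongest SMC1A region of the locus, chr5:158533025-158534271, reached 30.9 and 30.6 for SMC1A and overlapped NIPBL at 5.13 and 3.60. MED1 had a peak there only in replicate 2, at 3.85. SMC1A was thus much higher at this site than at the strongest NIPBL region, in both replicates. The widest MED1 region of the locus, chr5:158525817-158528277, measured 2461 bp and spanned 2 NIPBL regions.

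The 2 Ikaros family loci differed in strength. IKZF3 held 15 and 12 NIPBL, 14 and 19 MED1, and 15 and 16 SMC1A peaks in 150 kb, against 15 and 10, 10 and 23, and 14 and 16 in 180 kb at IKZF1. A single stretch of IKZF3 carried its strongest regions of NIPBL and SMC1A and its widest region of MED1. There, at chr17:37910282-37911447, NIPBL reached 7.99 and 10.9, MED1 14.8 and 26.8, and SMC1A 17.7 and 25.5, and the NIPBL region ranked 214 of 11635. At IKZF1 the strongest NIPBL region, chr7:50347870-50348870, had 5.89 and 3.39 for NIPBL, 3.18 and 4.95 for MED1 and 3.21 and 3.73 for SMC1A, and ranked 6332. The strongest SMC1A region of IKZF1, chr7:50485476-50486195, stood at 29.1 and 31.0, with single-replicate peaks of NIPBL (2.89) and MED1 (3.59) and no region of either. Its widest MED1 region, chr7:50343409-50345616, measured 2208 bp, with fold enrichments of 2.98 and 5.38.

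MED1 at POU2AF1 was concentrated in a compact stretch. The 80 kb window held 9 and 7 NIPBL, 11 and 12 MED1 and 10 and 10 SMC1A peaks. The widest MED1 region, chr11:111246239-111251050, measured 4812 bp and overlapped 3 NIPBL and 2 SMC1A regions. The strongest NIPBL region of the locus, chr11:111241720-111242348, had 5.22 and 3.55 for NIPBL, and there MED1 reached 6.86 and 16.8 and SMC1A 3.65 and 4.78. SMC1A was stronger at chr11:111229904-111230375, with 15.0 and 16.0, where neither other protein had a peak.

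The SPIB window, the shortest at 60 kb, held few NIPBL peaks, 3 and 2, beside 8 and 10 MED1 peaks and 3 and 8 SMC1A peaks. Its widest MED1 region, chr19:50920322-50923582, measured 3261 bp with fold enrichments of 5.13 and 12.9. The strongest NIPBL region, chr19:50918831-50919172, had 3.75 and 4.82, and the strongest SMC1A region, chr19:50917910-50918467, 16.0 and 26.0. At IRF8, 14 and 9 NIPBL, 6 and 15 MED1 and 15 and 21 SMC1A peaks were called in 120 kb. SMC1A was widest here relative to the window, and its strongest region, chr16:85927830-85928437, had 24.4 and 26.8 for SMC1A, 4.46 and 4.63 for NIPBL and no MED1 peak. Its strongest NIPBL region, chr16:85936144-85936808, had 6.16 and 5.82 for NIPBL and lay in its widest MED1 region, chr16:85935416-85937993, of 2578 bp. MEF2C held 15 and 7 NIPBL, 9 and 28 MED1 and 8 and 15 SMC1A peaks in 240 kb. Its strongest NIPBL region, chr5:88122733-88123425, reached 6.28 and 6.29 for NIPBL and 5.75 and 14.2 for MED1, with SMC1A at 3.71 in replicate 2 alone. The widest MED1 region of MEF2C, chr5:88178409-88180592, measured 2184 bp without a NIPBL region, and its strongest SMC1A region, chr5:88025326-88025857, had 13.6 and 17.7 with no peak of the other proteins.

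The loci of the repressors BCL6 and BACH2 had SMC1A but almost no MED1. BCL6, a 400 kb window, held 9 and 6 NIPBL, 1 and 4 MED1 and 11 and 15 SMC1A peaks. BACH2, a window of 430 kb, held 6 and 3 NIPBL, 0 and 3 MED1 and 8 and 8 SMC1A peaks. SMC1A covered 1.08% and 1.56% of the BCL6 window and 0.623% and 0.69% of the BACH2 window. The 100 kb bins averaged 1.01% and 1.27%, so BCL6 lay above these means and BACH2 below them in both replicates. The only MED1 region of the BCL6 window, chr3:187636902-187637168, measured 267 bp with 2.96 and 4.50, and BACH2 had none. The longest stretch without a MED1 peak of either list was 203 kb at BACH2 and 146 kb at BCL6, or 47.3% and 36.5% of the window. As a share of the window such gaps did not set these loci apart, since the longest was 43.1% at POU2AF1 and 36.3% at SPIB. High SMC1A enrichment was nevertheless present. At chr3:187459536-187460378 it reached 33.5 and 30.6, the strongest SMC1A region of the BCL6 locus, and at chr6:90650171-90650782, the strongest at BACH2, 21.5 and 25.9, with no MED1 peak at either. The strongest NIPBL region of BCL6, chr3:187463304-187463600, had 6.99 and 5.05 and was the only NIPBL region of the windows with no peak of MED1 or SMC1A in any library. At BACH2 the strongest, chr6:90813056-90813429, had 5.84 and 5.29, with a MED1 peak of 4.14 in replicate 2. The lowest summit pileups called were 7 to 11 fragments, and weaker binding was not detectable at this depth.

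**Figure D2:**
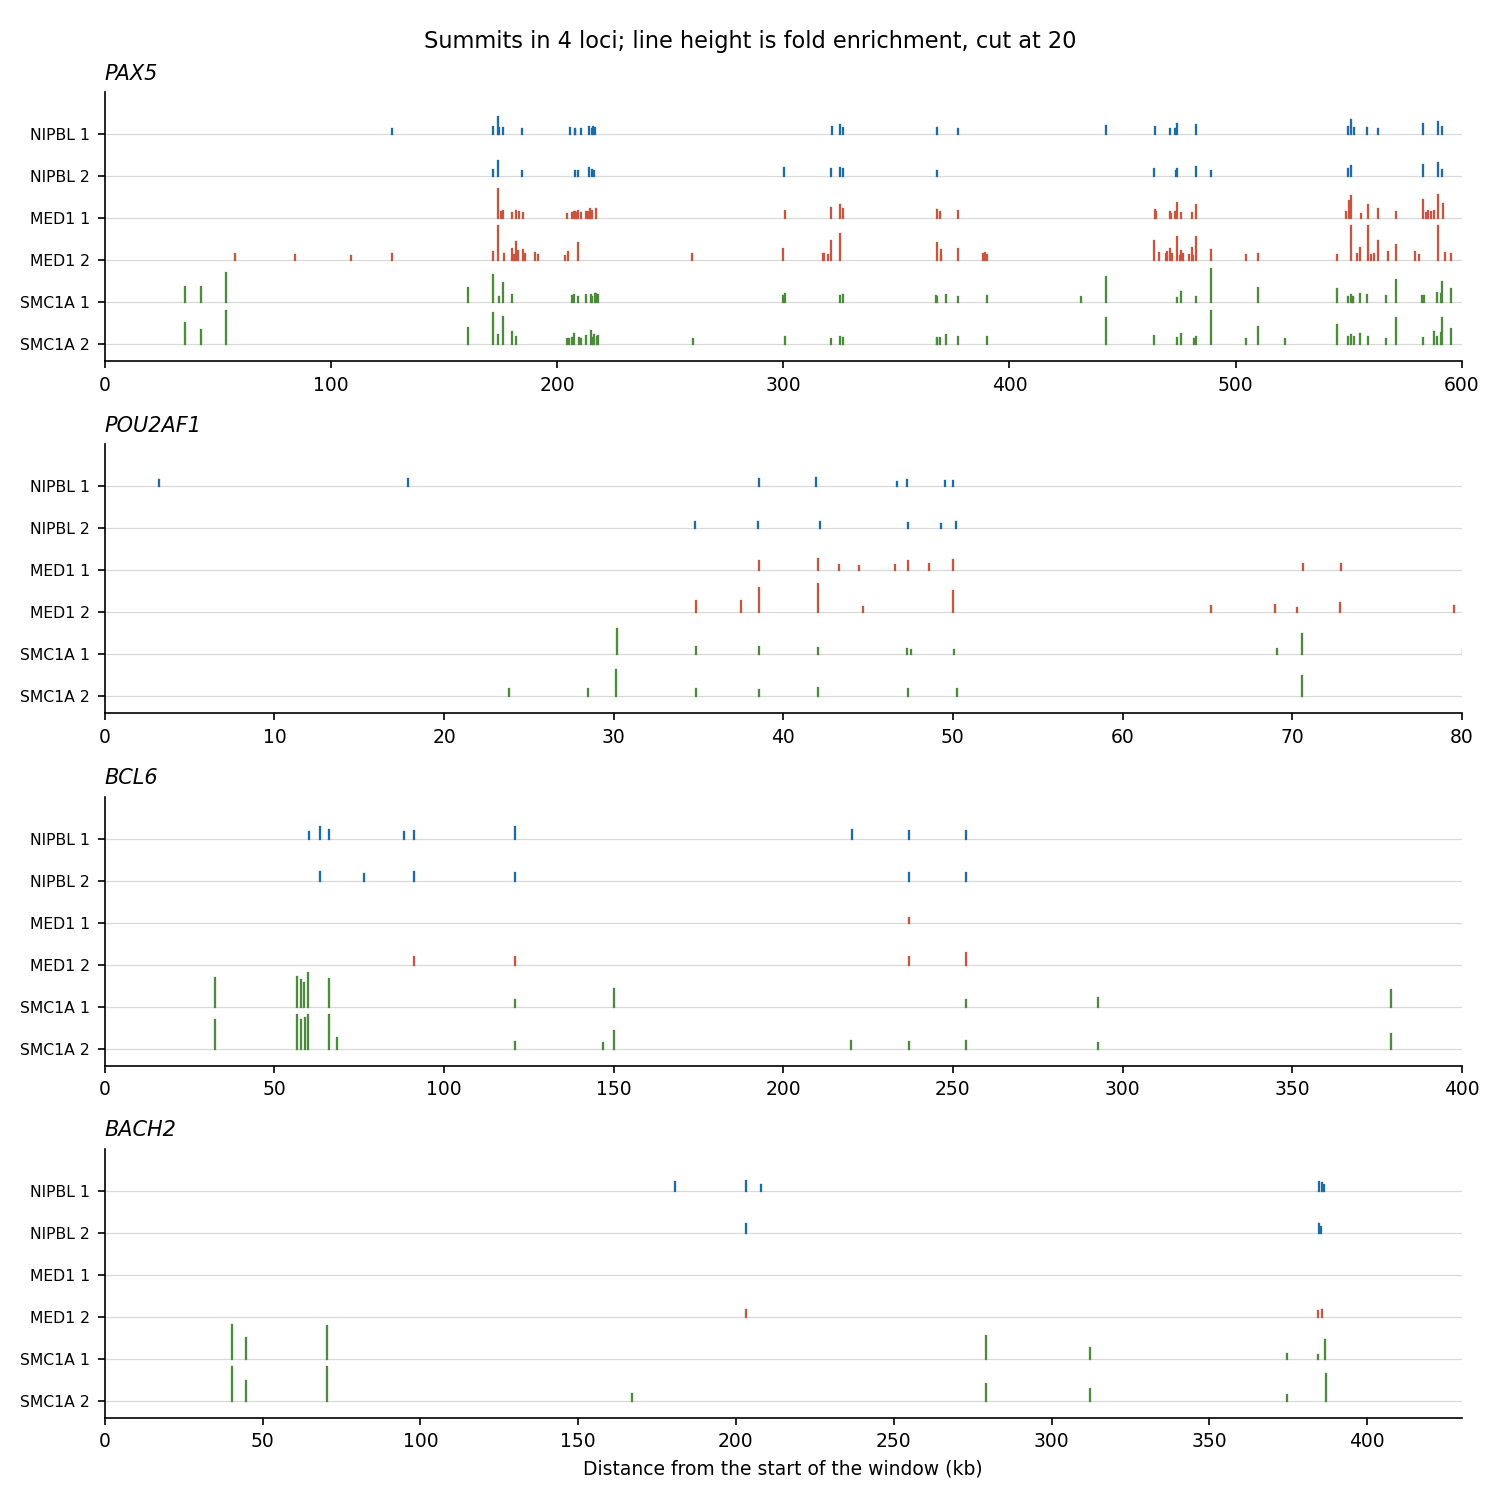
Peak summits of the 6 libraries along the PAX5, POU2AF1, BCL6 and BACH2 windows (x axis, kb from the start of the window); line height is the deposited fold enrichment, cut at 20, and the rows are NIPBL, MED1 and SMC1A replicates 1 and 2. Summits of all 3 proteins bunch in PAX5 and POU2AF1, while BCL6 and BACH2 hold 1 and 0 MED1 summits in replicate 1 beside tall SMC1A lines.

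NIPBL in the windows lay mostly where both partners were. Of the 76 NIPBL regions, 48 overlapped MED1 and SMC1A regions, or 63.2% (exact Clopper-Pearson 95% interval 51.3% to 73.9%, counting error only), and 47.8% of all NIPBL regions did. Another 12 had MED1 alone, 8 SMC1A alone and 8 neither, the last 10.5% against 15.2% of all NIPBL regions. MED1 was at 60, or 78.9%, against 70.2% of all, and SMC1A at 56, or 73.7%, against 62.4% of all. Regions of 1 locus are neighbours and not independent, so the interval is too narrow for a comparison of loci with the genome. Regions in the windows were also wider, with a median of 570 bp against 473 bp of all NIPBL regions and 1188 bp against 769 bp of all MED1 regions, and the part of width in the overlaps was not tested. With peaks at −log10 q of at least 5 the share with both was 45.1% in the windows and 43.2% of all NIPBL regions. With equal numbers of the strongest peaks it was 1 of 64 in the windows, or 1.56%, and 2.72% of all, so the windows did not stand above the genome there.

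The share was uneven over the loci. Both partners were at 6 of 6 NIPBL regions of POU2AF1, 9 of 10 of IKZF3, 14 of 18 of PAX5, 5 of 7 of IRF8, 8 of 12 of EBF1, 4 of 7 of IKZF1 and 2 of 6 of MEF2C. None of the 2 of SPIB, the 5 of BCL6 or the 3 of BACH2 had both, and the SPIB regions had MED1 alone. All 3 BACH2 regions counted as having neither. Of the 8 regions with neither in the windows, 7 overlapped a MED1 peak of replicate 2, a share near that of all NIPBL regions with neither, of which 1506 of 1763 did. The replicate 2 list of MED1 held 45046 peaks, against 18131 in replicate 1.

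**Figure D3:**
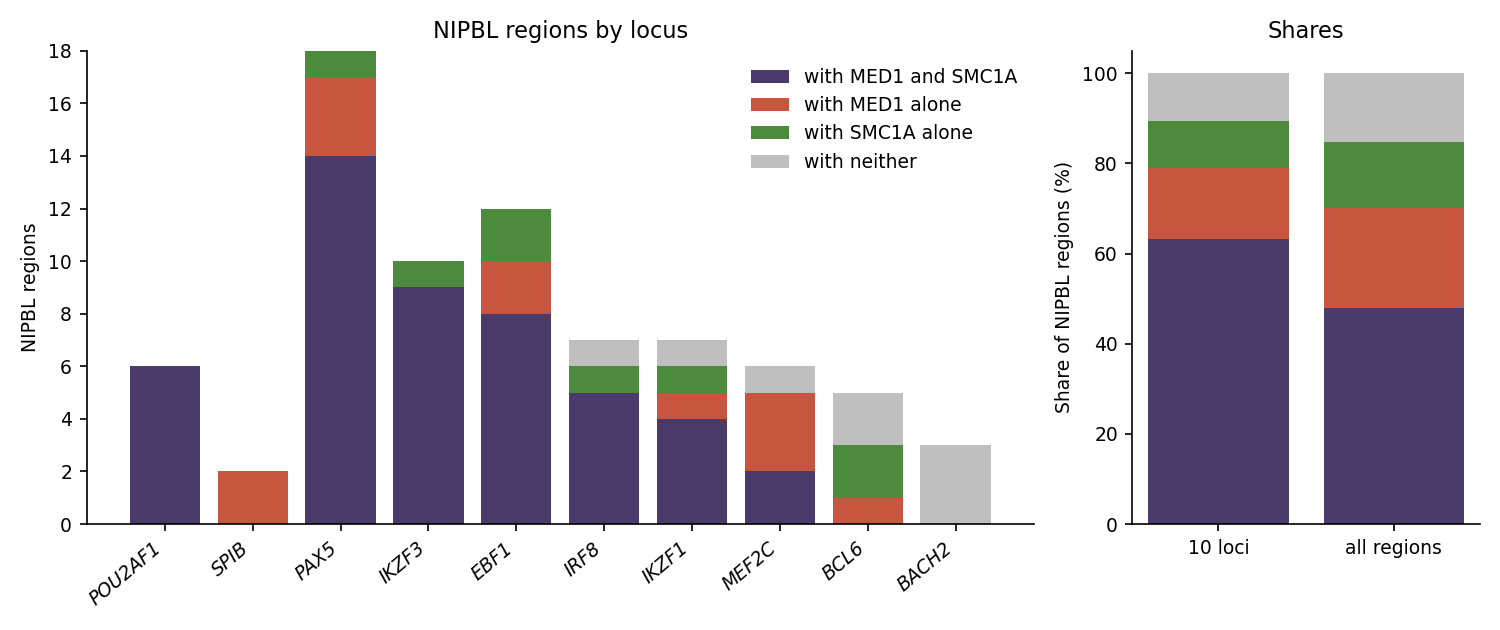
NIPBL regions per locus by partner class (left, number of regions) and the share of each class in the 10 loci and in all NIPBL regions (right, percent). PAX5 contributes 18 regions, 14 with both partners, BCL6 and BACH2 contribute none with both, and the shares with both are 63.2% and 47.8%.

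Seen from MED1, 48 of the 89 MED1 regions in the windows overlapped NIPBL, or 53.9%, against 49.3% of all MED1 regions, and 58 overlapped SMC1A, or 65.2%, against 52.2% of all. The larger gap was seen from SMC1A, the protein with most regions. Of 142 SMC1A regions in the windows, 56 overlapped NIPBL, or 39.4%, against 14.3% of all SMC1A regions. MED1 was at 77, or 54.2%, against 17.5% of all, and 57 had neither, or 40.1%, against 79.2% of all. The density of windows over rest was 7.10 for NIPBL and 6.44 for MED1 regions, against 3.01 for SMC1A regions. MED1 regions in the windows were also wider, with a median of 1188 bp against 769 bp of all. The part of density and width in the gap was not tested. At BCL6, 9 of 11 SMC1A regions had neither partner, and at BACH2 7 of 7, while at PAX5 12 of 41 and at IKZF3 2 of 12 did. At NIPBL regions that overlap the partner, a choice that itself favours short distances, summits in the windows lay close together. The median distance from a NIPBL summit to the MED1 summit was 48 bp and 60 bp in replicates 1 and 2. To the SMC1A summit it was 71 bp and 81.5 bp. Over all NIPBL regions with the partner, these medians were 50 bp and 47 bp for MED1 and 81 bp and 70 bp for SMC1A. Distances of at most 200 bp made up 86.4% and 68.3% for MED1 in the windows, against 87.4% and 81.5% of all. For SMC1A they made up 81.8% and 91.1%, against 85.2% and 85.9% of all.

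SMC1A peaks in the windows were weaker than most SMC1A peaks. Their median fold enrichment was 4.17 and 4.50 in replicates 1 and 2, against 8.61 and 7.53 in the rest, and the median peak in the windows stood at percentiles 17.7 and 25.7 of its list. NIPBL and MED1 peaks had no such gap, with medians of 3.84 and 3.98 in the windows against 3.88 and 4.08 in the rest for NIPBL, and 3.84 and 4.61 against 3.81 and 4.82 for MED1. By locus, the median percentile of SMC1A peaks was 69.4 and 54.8 at BCL6 and 62.2 and 61.2 at BACH2, and between 9.47 and 30.8 at the other 8 loci in either list. The loci with least MED1 thus had the highest median rank of SMC1A peaks. This did not hold for single peaks, since the top SMC1A peak of BACH2 ranked below those of EBF1, IKZF1 and IRF8 in both lists. SMC1A summit pileups were lower in the windows, with medians of 27 and 29 fragments against 38 and 34 in the rest. The control estimate under SMC1A summits was higher, with medians of 5.55 and 5.11 fragments against 4.14 and 4.09 in the rest. The part of the control in the lower fold was not tested.

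Within the windows, SMC1A strength went with the partner class. The 48 SMC1A regions with NIPBL and MED1 had median fold enrichments of 3.72 and 4.66, and the 29 with MED1 alone 4.36 and 4.85. The 57 with neither had 8.37 and 8.68, and the 8 with NIPBL alone 19.6 and 20.9. Over all SMC1A regions the medians were 4.37 and 5.32 with NIPBL and MED1, 4.38 and 5.14 with MED1 alone, 11.5 and 12.9 with neither, and 14.9 and 17.4 with NIPBL alone. Weaker SMC1A beside MED1 was thus also seen over the whole genome. Ranges overlapped, since regions with both partners reached 17.7 and 25.5 at IKZF3 and the lowest with NIPBL alone was 3.16 and 2.80. MED1 was strongest with both partners. The 38 MED1 regions with NIPBL and SMC1A had 5.70 and 12.1 and a median width of 1526 bp, against 3.55 and 5.80 and 619 bp for the 21 with neither. The same order held over all MED1 regions, with 4.81 and 10.2 and 953 bp with both partners, against 3.499 and 6.31 and 682 bp with neither. A wider region has more bases to overlap a partner, and its fold enrichment is that of its strongest peak. The part of width in this order was not tested.

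**Figure D4:**
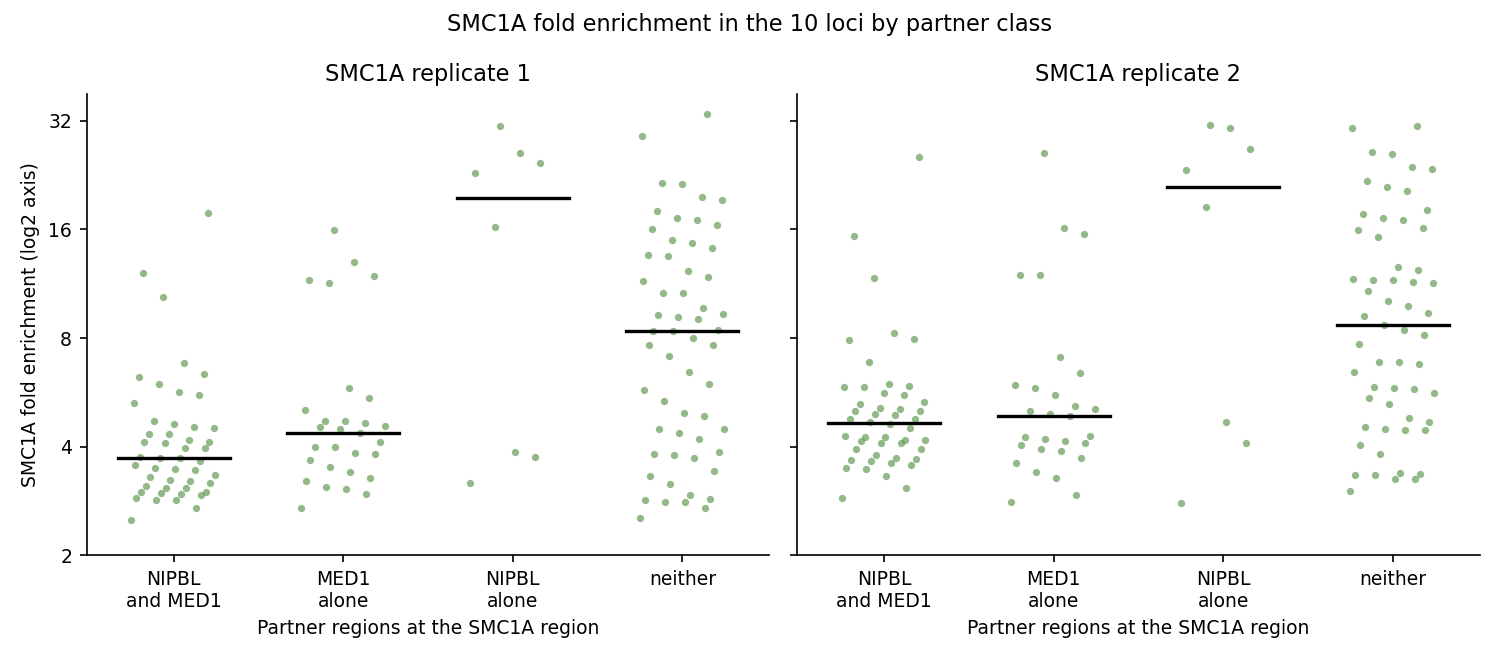
SMC1A fold enrichment (y axis, log2 scale) of the 142 SMC1A regions in the 10 loci by partner class, in replicates 1 and 2; points are regions and bars medians. The 8 regions with NIPBL alone have medians of 19.6 and 20.9, and the 48 with NIPBL and MED1 3.72 and 4.66, with overlapping ranges.

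NIPBL regions were bunched in the windows. With regions at most 10 kb apart joined, 39 of 76, or 51.3%, lay in clusters of at least 3 regions, against 28.9% of all NIPBL regions. The density of NIPBL regions in the windows was 7.10 times that in the rest, and its part in the bunching was not tested. PAX5 had 5 clusters of 3, from 5597 bp to 18960 bp long, and IKZF3 had 2 clusters of 3. POU2AF1 had a cluster, chr11:111238305-111250463, with 5 NIPBL regions over 12159 bp, overlapped by 4 MED1 regions that add up to 11167 bp. Another POU2AF1 cluster, of 7, chr11:111279794-111293956, lay past the window's edge, with 1 region inside. IRF8 likewise had a cluster of 5, over 16432 bp, chr16:85928081-85944512, EBF1 a cluster of 4 over 9307 bp, chr5:158524769-158534075, and IKZF1 a cluster of 3, chr7:50343943-50348870. BCL6, BACH2, MEF2C and SPIB had none of 3 or more. All 5 BCL6 regions stood alone, whereas 2 of the 3 BACH2 regions and both SPIB regions lay within 10 kb of each other.

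Peaks of the windows were shared between replicates about as often as others. Replicate 1 and 2 peaks in the windows overlapped a peak of the other list in 55.2% and 86.3% for NIPBL, against 55.6% and 79.2% in the rest. For MED1 it was 98.5% and 39.6%, against 98.99% and 33.5%, and for SMC1A 89.9% and 70.9%, against 92.0% and 75.6%. The position of a region relative to exons, introns and starts was not analysed here, since no hg19 annotation was used.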

How the data were processed

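Per the labels, GM12878 cells were profiled by ChIP-seq in 2 libraries each of NIPBL, MED1 and SMC1A, with 2 whole cell extracts pooled as control. Per the submitters' processing notes, Trimmomatic 0.33, BWA 0.7.12 and MACS2 2.1.0 were used with hg19. The sources used here do not give their settings. Peaks were called by the authors per library, per the labels. The deposited fold enrichment is a ratio and not a logarithm, summit signal over the local control estimate, with the same small constant added to both. Evidence at each summit comes as −log10 of p and of q, as deposited. The deposited score was not used. Files hold no read totals. Summit pileups were solved from the deposited fold and p, which every peak allowed within 0.01, assuming an unscaled ChIP pileup, and the lowest control estimate gave relative depth.

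Chromosomes 1 to 22 and X were used. Features sharing 1 bp or more counted as overlapping, coordinates are 1-based, and strength is the mean percentile of fold enrichment over both lists. In each locus the strongest NIPBL, the widest MED1 and the strongest SMC1A region were described, with every MED1 region over 5 kb and every cluster of 3 or more NIPBL regions (counted where a locus holds several). The share of NIPBL regions with both partners is given with an exact Clopper-Pearson 95% interval, and other shares without one. Members, windows and lists were chosen with earlier results of these data known, so no test was run over them. Motifs in RefSeq promoters were searched as a later choice. Steps were tested on simulated data. Python 3.11.15, pandas 2.3.3, NumPy 2.4.6, SciPy 1.17.1 and matplotlib 3.10.9 were used. Alternatives were regions of either replicate, each library and locus left out, −log10 q of at least 5, equal numbers of top peaks, windows widened by 50 kb, summits at most 200 bp apart, and overlap over part of the region. Motifs under hg19 summits, cell type markers and other transcription factor genes were not analysed here, as no hg19 genome or annotation was used.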

Additional observations from a re-analysis of the deposited data

How the results depend on the processing

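Every density ratio under the alternatives stayed above 1, and 102 of 134 alternative values moved by less than the spread between replicates or the counting interval. Most alternative values of the SMC1A density ratio moved by more than that. Its single libraries lay close together, at 3.22 and 3.27, against 8.04 and 5.47 for MED1. The measure therefore does not compare steadiness between proteins. With regions of either replicate there were 153 NIPBL, 228 MED1 and 219 SMC1A regions in the windows, and the SMC1A density ratio was 3.29. Leaving out 1 library or 1 locus gave 58 to 143 NIPBL, 64 to 227 MED1 and 101 to 206 SMC1A regions. Density ratios were then 6.53 to 8.10 for NIPBL, 5.47 to 8.04 for MED1 and 2.75 to 3.40 for SMC1A. With 1 library or 1 locus left out, the share of NIPBL regions with both partners was lowest without NIPBL replicate 2, at 46.9%. All NIPBL regions had 33.04% there. It was highest without SMC1A replicate 1, at 76.3%, where all had 59.4%. With windows widened by 50 kb on each side the NIPBL density ratio was 6.64. With −log10 q of at least 5 the SMC1A density ratio was 2.46 and the share of NIPBL regions with both partners 45.1%. With equal numbers of top peaks there were 59 MED1 and 16 SMC1A regions, an SMC1A density ratio of 1.26, SMC1A coverage of 0.431% and a share with both partners of 1.56%. The lists differ in length, so this setting keeps 15357 peaks of every list and removes most weak SMC1A peaks by its construction. Ranked by −log10 p, the strongest NIPBL region was the named one in 6 of 10 loci. No paired analysis was possible because no result comes from a test between groups. Files give no read totals, and lowest summit pileups of 7 to 11 fragments limit what could be called. Motifs at summits and other gene lists were not run.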
